A study of Arabidopsis thaliana with 2 samples.

Results

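The regions described here are 299 stretches of the Arabidopsis thaliana genome at the end of a protein-coding gene where both libraries of the series had a CCA1 peak and the mean rank of the paired peaks was high. They were chosen by rule from 1499 nuclear shared segments, where a shared segment is the stretch common to an IonPGM peak and an Illumina peak that overlap by at least 1 bp. Of these, 939 had their midpoint at a gene end, from 1000 bp outside to 200 bp inside the nearest end of a protein-coding gene and no deeper than that in any other. Among those 939, the 299 (31.8%) were the ones whose peaks reached a mean score percentile of at least 75. The score percentile is the rank of a peak by the authors' own score, from 0 to 100 within its list. The remaining 640 segments at gene ends are called weaker here.

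Both libraries came from chromatin immunoprecipitation with an anti-FLAG antibody followed by sequencing (ChIP-seq), which recovers the DNA that a tagged protein is cross-linked to. All plants were cca1 lhy double mutants in the Col-0 accession that expressed CCA1-FLAG from the CCA1 promoter. Whole seedlings of 14 days, grown at 22 °C with 12 h light and 12 h dark on plates containing 2% sucrose, were cross-linked 1 h into the light period. The libraries were made with different kits, 1 for the Ion PGM sequencer (IonPGM) and 1 for the Illumina GAII (Illumina). The groups hold 1 library each, so no value has a replicate error, no test between conditions could be made, and kit, sequencer and plant material cannot be told apart. The labels do not say how many transgenic lines were used or whether both libraries came from the same immunoprecipitate. The IonPGM list held 2901 peaks and the Illumina list 2954, of which 2848 and 2888 were nuclear, and read depth is unknown.

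CCA1 is a MYB-related transcription factor of the plant circadian clock that accumulates around dawn, together with its close relative LHY. It is known as a repressor of clock genes expressed later in the day, whose products in turn repress CCA1, and it acts on outputs such as cold response, light-harvesting and growth genes. A peak at a gene end is read here as possible occupancy near that gene and does not show that the gene is regulated.

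The 3 regions with the highest mean percentile lay at clock genes, and the next were at BBX8 and GRP7. The highest rank in both lists fell at CCA1 (AT2G46830), where the segment covered chr2:19245186-19245676 and its centre lay 160 bp outside the gene. The transgene carries the CCA1 promoter, and whether the segment lies at the start or the end of the gene was not determined. If it lies in the promoter, copies of the transgene and the native locus cannot be told apart. An end of PSI-P also lay in the window. GI (AT1G22770), which encodes a large protein of clock and flowering control expressed late in the day, had percentiles of 99.6 in IonPGM and 99.9 in Illumina at chr1:8060712-8061226. That centre was 782 bp from the gene, the farthest of any clock gene nearest to its own region. ELF4 (AT2G40080), a subunit of the evening complex that represses transcription at night, stood at 99.4 in IonPGM and 99.97 in Illumina, 84 bp outside the gene. Both lists placed these 3 regions in their top 1%.

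Of 26 listed clock genes, 12 had a strong shared segment in the window of an end, against 1.53% of all 27444 protein-coding genes (421 genes). All 12 reached a mean percentile of 90, a level met in the window of 0.598% of all genes and by 113 of the 299 regions (37.8%). The members and the lists were chosen with earlier results of these data known, so these counts describe the lists and are not independent support.

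Among the evening genes 7 of 12 had a strong region. FKF1 (AT1G68050), a blue-light receptor F-box protein, had percentiles of 99.03 in IonPGM and 99.8 in Illumina, and TOC1 (AT5G61380), a repressor of CCA1, had 98.2 and 99.7 in that order of lists. The TOC1 centre at chr5:24674745-24675088 lay 47 bp outside the gene. BOA, a GARP-type DNA-binding protein related to LUX, had 95.2 in IonPGM and 97.0 in Illumina. LUX (AT3G46640, also PCL1), the DNA-binding member of the evening complex, had 95.5 in IonPGM and 96.6 in Illumina, but the gene nearest to that centre was AT3G46630. PRR5, a pseudo-response regulator of the afternoon, was the lowest of the 7 with 91.6 in IonPGM and 94.1 in Illumina. CHE, a TCP-class factor, had a weaker shared segment with a mean of 54.8, and ELF3, PRR3, ZTL and LKP2 had no shared segment centred at an end. Here and below, segments centred more than 200 bp inside any gene were not counted.

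Among the morning genes 5 of 14 had a strong region. Besides CCA1 these were PRR9 (AT2G46790) at 99.1 in IonPGM and 98.8 in Illumina, and PRR7 (AT5G02810) at 94.5 in IonPGM and 95.9 in Illumina, both pseudo-response regulators that repress CCA1. The others were the CCA1-related MYB genes RVE7 (AT1G18330, also EPR1), with 96.0 in IonPGM and 99.5 in Illumina, and RVE2 (AT5G37260), with 88.9 in IonPGM and 97.3 in Illumina. RVE7 carried the longest segment of all 299, with 677 bp common to an IonPGM peak of 677 bp and an Illumina peak of 772 bp. RVE2 was the only one of the 12 clock genes below percentile 90 in a list. PRR9 and CCA1 are near neighbours on chromosome 2, and the centres of their regions lay 12945 bp apart. LNK3 had a weaker segment with a mean of 49.2, and the other 8 morning genes, LHY among them, had no shared segment centred at an end.

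**Figure D1:**
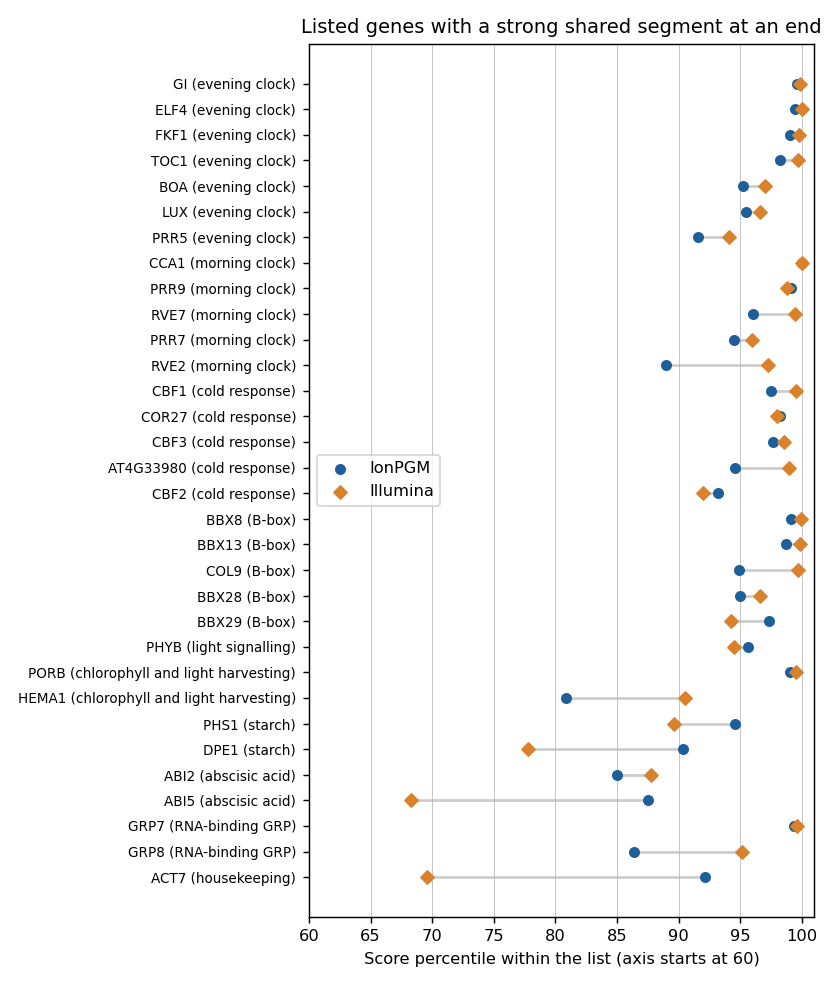
Score percentile within each list (x axis, 60 to 100, no unit) of the strong shared segment at each of the 32 listed genes that had one, with circles for IonPGM, diamonds for Illumina and the gene's list in brackets. All evening clock genes lie above 90 in both lists, while ABI5 (87.5 in IonPGM, 68.3 in Illumina) and ACT7 (92.1 and 69.6) show wide gaps.

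Cold response genes included a close run of regions. Strong regions stood at 5 of 15 listed genes (33.3%, against 1.53% of all genes), each with a mean percentile over 90, a level found at 0.598% of all genes. The tandem genes CBF1 (AT4G25490), CBF2 (AT4G25470) and CBF3 (AT4G25480, also DREB1A), which encode AP2-type activators of cold acclimation, lay along a run of 4 strong regions on chromosome 4. Along the chromosome the regions were nearest to CBF2, CBF3, CBF1 and CBF1 again, with spacings of 1565, 3328 and 2370 bp. The IonPGM percentiles were 93.2, 97.6, 93.8 and 97.5, and the Illumina percentiles 91.9, 98.5, 99.1 and 99.5. Both lists thus placed every peak of the run in the top 10%, and the region outermost at CBF1 (chr4:13023416-13023835) had the widest peaks, 468 bp in IonPGM and 543 bp in Illumina. RS40, a splicing factor gene, also has an end within the window of that last region.

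**Figure D2:**
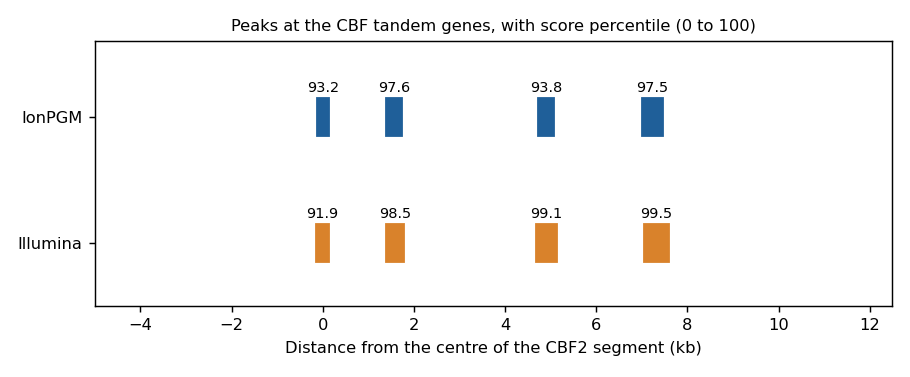
Peaks of IonPGM (upper row) and Illumina (lower row) along the CBF tandem genes, drawn to scale as distance in kb from the centre of the CBF2 segment, with each peak's score percentile above it. The 4 peaks of each list pair one to one, and neither list has another peak in the stretch shown.

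The remaining listed cold genes with a strong region were COR27 (AT5G42900), a cold-regulated gene that acts in the clock, and AT4G33980. The list does not hold every cold-regulated gene. COR314-TM2 and COR413IM1, which are not in it, also had strong regions, with means of 93.2 and 87.8. COR27 had 98.2 in IonPGM and 98.0 in Illumina, with its centre 70 bp inside the gene, and AT4G33980 had 94.6 in IonPGM and 98.95 in Illumina. ERD10 and ZAT12 had weaker segments, with means of 49.4 and 55.5, and the other 8 had none centred at an end.

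B-box genes encode zinc-finger proteins of light signalling and flowering. Strong regions lay at 5 of 32 (15.6%, against 1.53% of all genes): BBX8 (AT5G48250), BBX13 (AT1G28050) and COL9 (AT3G07650), which encode proteins with a CCT domain, and BBX28 (AT4G27310) and BBX29 (AT5G54470), single B-box genes. BBX8 had 99.1 in IonPGM and 99.9 in Illumina, and BBX13 had 98.7 and 99.8 in the same order. COL9 stood at 94.9 in IonPGM and 99.7 in Illumina, BBX28 at 95.002 and 96.6, and BBX29 at 97.3 and 94.2. BBX29 was the only one of the 5 with the higher percentile in IonPGM. BBX14, BBX15 and BBX25 had weaker segments, with means of 50.5, 37.8 and 70.5. CO itself, the photoperiodic activator of flowering, was among 24 B-box genes with no shared segment centred at an end.

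GRP7 (AT2G21660) and GRP8 (AT4G39260, also CCR1), paired glycine-rich RNA-binding proteins under clock control, both had a strong region. GRP7 had 99.3 in IonPGM and 99.6 in Illumina over a segment of 614 bp, the third longest after RVE7 and AT3G14060 (645 bp). GRP8 was lower, with 86.4 in IonPGM and 95.1 in Illumina.

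Among photosynthesis genes PORB (AT4G27440), a protochlorophyllide oxidoreductase of chlorophyll synthesis, had 99.0003 in IonPGM and 99.5 in Illumina, and HEMA1 (AT1G58290), which starts tetrapyrrole synthesis, had 80.8 and 90.5. These were 2 of 20 genes of chlorophyll synthesis and light harvesting (10%, against 1.53% of all genes), and LHCB4.1 had a weaker segment. Among starch genes 2 of 12 (16.7%) had a strong region and 4 others, PHS2, SEX4, GBSS1 and ISA3, a weaker one. The strong ones stood at the plastid phosphorylase gene PHS1 (94.6 in IonPGM, 89.6 in Illumina) and the disproportionating enzyme gene DPE1 (90.3 and 77.8), where AT5G64870 was the nearer gene. Of the 19 listed light signalling genes only PHYB (AT2G18790), the main red-light photoreceptor of light-grown plants, had a strong region (5.26%). It stood at 95.6 in IonPGM and 94.5 in Illumina, and CRY2, PIF5 and SPA1 had weaker segments. The list does not cover every such gene. PIL2 (AT3G62090), a relative of the PIF genes left out of it, had a strong region at 96.0 in IonPGM and 99.1 in Illumina.

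Abscisic acid genes gave 2 of 8 (25%), the phosphatase gene ABI2 (84.97 in IonPGM, 87.7 in Illumina) and the bZIP factor gene ABI5 (87.5 and 68.3). The listed flowering and Dof genes gave 0 of 7, although 2 of them had weaker segments. The housekeeping list gave 1 of 10, ACT7, an actin gene, with 92.1 in IonPGM and 69.6 in Illumina, so that control list also stood above the 1.53% of all genes. Over the 11 lists, 32 of 151 genes had a strong region and 19 others a weaker one. The share of all genes with a weaker one and no strong one was 3.29%.

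The other genes among the 20 highest regions had more varied roles. TPR1 (AT1G80490), a TOPLESS-related corepressor, had 98.7 in IonPGM and 99.6 in Illumina across an end of the gene, with PTAC17 also in the window. A second strong region for TPR1 lay 6512 bp away, 214 bp outside the gene, at 94.8 in IonPGM and 96.7 in Illumina. TPR1, CBF1 and AT4G30650 were the only genes that were nearest to 2 of the 299 regions. The pair at AT4G30650 was unequal: 97.7 in IonPGM and 98.3 in Illumina for the higher region, and 90.4 and 62.5 for the lower, 1076 bp apart.

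BRU6 (AT4G37390, also GH3.2), which encodes an enzyme that conjugates auxin to amino acids, had 98.2 in IonPGM and 99.3 in Illumina. NAC019 (AT1G52890), a stress-response NAC factor, had 98.0 in IonPGM and 99.1 in Illumina, with the centre 936 bp from the gene. AGL44 (AT2G14210, also ANR1), a MADS-box gene known from nitrate responses of roots, had 97.9 in IonPGM and 98.7 in Illumina. At the remaining regions of the top 20, several genes shared the window. AT4G33467 lay beside HDA14, a histone deacetylase gene, and SCRL22. AT5G54760 lay beside THI1, of thiamine synthesis. AT3G15635 lay beside AT3G15630 and UVR3, a DNA photolyase gene. Their percentiles were 98.1, 98.6 and 96.9 in IonPGM and 99.7, 98.4 and 99.3 in Illumina.

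Both libraries ranked most of these regions high, but not equally. The median percentile was 87.1 in IonPGM (lowest 56.6) and 90.6 in Illumina (lowest 59.3). In 222 of the 299 regions both percentiles were at least 75, in 31 only the IonPGM one was and in 46 only the Illumina one. Because the rule sets a floor on the mean, these values describe the choice. The percentiles differed by at most 10 in 191 regions and by more than 20 in 37. The Illumina percentile was the higher one in 188 regions (62.9%), against 346 of the 640 weaker segments (54.1%).

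The 3 largest gaps each way involved genes of varied roles. IonPGM stood higher at AT5G01850 (92.7 against 59.3 in Illumina), at the lower region of AT4G30650 and at ATAUX2-11 (93.3 against 67.6), an auxin-response repressor gene. IonPGM stood lower at CIPK26 (56.6 against 94.7 in Illumina), a kinase gene of calcium signalling whose region also overlaps a tRNA gene. IonPGM also stood lower at AT4G17810 (59.3 against 96.5) and at FER3 (61.6 against 98.1), a ferritin gene. Just inside the threshold were LIG6, AT3G12180 and AT5G64550, with means of 75.16, 75.16 and 75.25. Just outside it were CYP71B26, AT2G39710 and AT3G07460, with means of 74.997, 74.9 and 74.9. The plot of percentiles shows no gap at the threshold, so strong and weaker regions form one continuous range.

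**Figure D3:**
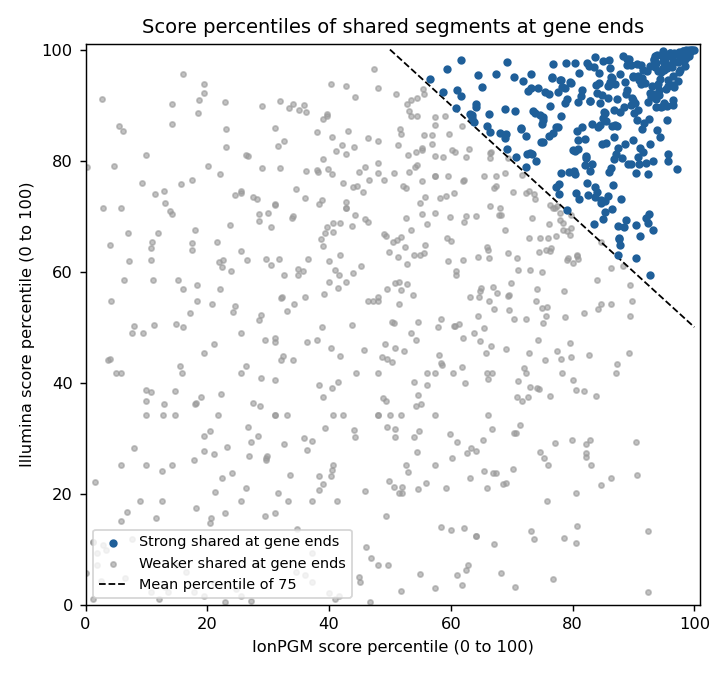
IonPGM score percentile (x axis) against Illumina score percentile (y axis), both 0 to 100, for the 299 strong (blue) and 640 weaker (grey) shared segments at gene ends. The dashed line marks a mean of 75, and the strong regions crowd into the upper right corner, with 84 of them at 90 or more in both lists.

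Peaks of the strong regions were wider and more closely centred than those of the weaker ones. Median peak width was 319 bp in IonPGM and 362 bp in Illumina at strong regions, against 246 and 278 bp at weaker segments. The centres of the paired peaks lay a median of 26.5 bp apart (quartiles 14.5 and 46.25 bp) at strong regions and 37.0 bp apart (18.5 and 66.5 bp) at weaker ones. Within 50 bp of each other were 237 of 299 strong pairs (79.3%) and 410 of 640 weaker pairs (64.1%). In 252 strong pairs (84.3%) and 448 weaker pairs (70.0%) the overlap covered at least 90% of the shorter peak. The quartile ranges overlap, and no test was made because peaks of 1 pair of libraries are not replicates. Width and score come from the same peak caller, and their dependence was not tested.

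Within the 299, the highest bin of mean percentile had wider peaks and closer centres than the lowest, with exceptions between them. From regions with a mean percentile of 75 to 80 up to those of 95 to 100, median width went from 283 to 384 bp in IonPGM and from 317 to 417 bp in Illumina, while the Illumina median of 373 bp in the bin from 85 to 90 stood above the 367.5 bp in the next. Median centre offsets in the 5 bins, low to high, were 34.0, 26.5, 27.0, 23.5 and 23.5 bp, and the share of pairs centred within 50 bp was 72.5, 80, 74.2, 82.8 and 89.1%. The Illumina percentile was the higher one in 35 of 69 regions of the lowest bin and in 44 of 55 of the highest.

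**Figure D4:**
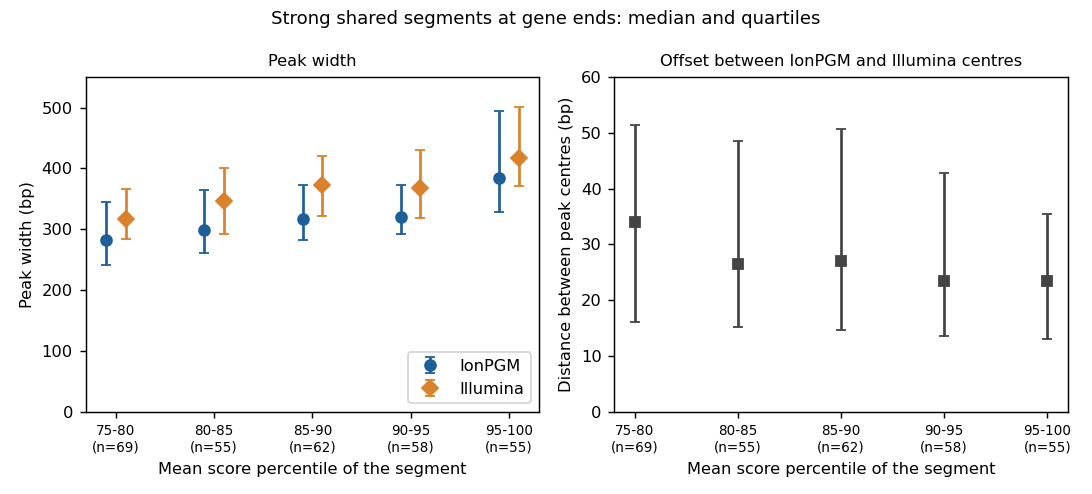
Median and quartiles (bars) of peak width in bp for IonPGM and Illumina (left) and of the distance in bp between the paired peak centres (right), by mean score percentile of the 299 strong regions. Width is larger in the highest bin (384 bp in IonPGM, 417 bp in Illumina) than in the lowest (283 and 317 bp), and the quartile ranges of the offset overlap throughout.

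Many centres of strong regions and of weaker segments alike lay near a gene end. The distance is to the nearest end of any protein-coding gene, and random positions were not compared. Nearness to an end is therefore a description only. The window of the rule reaches 1000 bp outside a gene and 200 bp inside it, so a majority outside follows from the choice of members and is given as a description. The centre lay outside the nearest gene in 236 of 299 (78.9%, exact 95% interval 73.9 to 83.4%), against 482 of 640 weaker segments (75.3%, 71.8 to 78.6%). These intervals cover counting error only and treat the regions as independent draws. Regions chosen by rule from the same pair of libraries are not such draws, so the intervals cannot decide whether the shares differ. The median position was 146 bp outside the gene end (quartiles 31 and 397.5 bp) for strong and 128.5 bp (2 and 337.5 bp) for weaker segments. Within 200 bp on either side of an end lay 170 strong regions. Inside the gene were 63 strong regions (21.1%) and 158 weaker segments (24.7%). Up to 100 bp outside lay 59 (19.7%) and 130 (20.3%), and from there to 200 bp 48 (16.1%) and 106 (16.6%). The weaker share was the higher one in each of these bins. Farther out, 27 strong regions (9.03%) and 71 weaker segments (11.1%) lay between 200 and 300 bp, 28 (9.36%) and 32 (5.0%) between 300 and 400 bp, 15 (5.02%) and 28 (4.38%) between 400 and 500 bp, and 59 (19.7%) and 115 (17.97%) between 500 and 1000 bp. The gene table gives no strand, so the start of a gene was not told from its end.

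**Figure D5:**
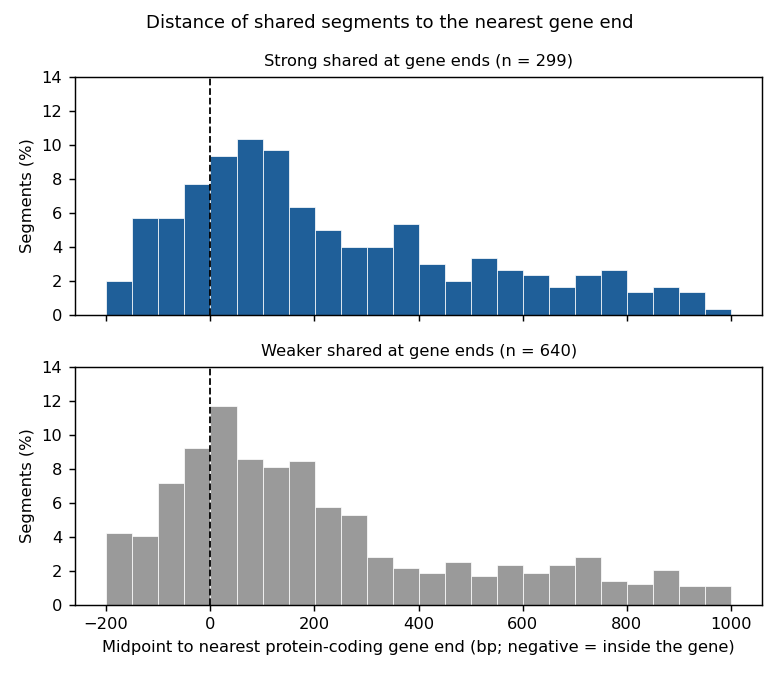
Share of segments (y axis, %) by distance in bp from the segment midpoint to the nearest protein-coding gene end, in 50 bp bins, with negative values inside the gene, for the 299 strong regions (upper panel) and the 640 weaker segments (lower panel). Both distributions peak within 200 bp of the gene end and tail off to 1000 bp outside.

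Many regions could belong to more than 1 gene. The centre was in the window of a single protein-coding gene in 181 regions, of 2 genes in 109 and of 3 genes in 9. Counting those with several gives 118 of 299 strong regions (39.5%) and 282 of 640 weaker segments (44.1%). These include regions named above for 1 gene only, such as those at BBX8, BBX13, PORB, PRR9, PRR7, RVE7, PHS1 and ABI5. The 299 regions had 296 nearest genes, and at 119 regions the table names the nearest gene by locus only. No other peak of either list was centred within 1000 bp in 276 strong regions (92.3%) and in 575 weaker segments (89.8%).

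The regions were spread over all chromosomes. There were 74, 49, 54, 45 and 77 on chromosomes 1 to 5, or 9.89 (chromosome 3) to 12.2 (chromosome 5) per 1000 protein-coding genes. Successive regions were centred within 20000 bp of each other in 26 cases and within 5000 bp in 9. Besides the CBF run, the close pairs included COR314-TM2 and COR413IM1, neighbouring cold-regulated membrane protein genes whose regions were 1705 bp apart with means of 93.2 and 87.8. AOC1 and AOC2, neighbouring allene oxide cyclase genes of jasmonate synthesis, had regions 3053 bp apart with means of 81.9 and 76.8. These pairs were named after their values were seen.

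Some strong regions also overlapped genes for RNAs that are not translated. By at least 1 bp, 44 of 299 strong regions (14.7%) and 62 of 640 weaker segments (9.69%) overlapped such a gene or pseudogene. In 25 strong regions (8.36%) it was a long noncoding RNA gene, against 31 weaker segments (4.84%). Shared segments far from coding genes had such an overlap in 38 of 257 cases (14.8%), and with a long noncoding RNA gene in 32 (12.45%). Segments were longer at strong regions, with a median of 292 bp against 216 bp at weaker ones, and the part of length in these counts was not tested. Transfer RNA genes were overlapped in 12 strong regions (4.01%) and 16 weaker segments (2.5%). The 12 regions overlapped 13 tRNA genes, or 2.08% of the 625 nuclear ones, and included those at GRP7, PRR7 and KPHMT1. Peaks at GRP7 (99.3 in IonPGM, 99.6 in Illumina) and PRR7 (94.5 and 95.9) therefore overlapped a tRNA gene and also lay at a coding gene's end. Occupancy at the end of the coding gene and signal at the tRNA gene cannot be told apart there. Small nuclear RNA genes of the U2 type were overlapped in 2 strong regions, near AT1G09800 and AT1G16820, and an rRNA gene in 1, near AT2G01008 at the start of chromosome 2. Among the 640 weaker segments, 5 overlapped a small nuclear RNA gene of any type and 0 an rRNA gene. The genes beside these RNA genes were named after their values were seen.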

How the data were processed

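ChIP-seq peaks of CCA1-FLAG were analysed from 2 libraries, IonPGM and Illumina. The submitters' processing notes name MACS2, Bowtie 0.12.7 and SAMtools 0.1.18 on the TAIR10 genome. Which control or peak cutoff was used is not stated there. The authors deposited 1 peak list per library, called per sample, with 1 score per peak whose scale is not named, so the score served only to rank peaks within its list (average rank over all peaks). Starts were taken as 0-based, and coordinates here are 1-based on TAIR10.

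Genes came from NCBI RefSeq on TAIR10.1 (27444 nuclear protein-coding genes), used for names and neighbours. This table gives no strand or sequence, so the planned shares at gene starts and of motifs were not analysed here. The members and the gene lists were chosen with earlier results of these data known. All 151 listed genes were found by locus, and the table gives the symbol for 145. Genes were named from the 20 highest regions, the lists, genes with 2 regions, the 3 largest percentile differences each way, the 3 on each side of the threshold and the 3 longest segments. PIL2 and the genes at close pairs of regions, at noncoding RNA genes and in the closing families fall outside that rule. They were named after their values were seen. Intervals are exact (Clopper-Pearson, 95%) and treat the regions as independent draws, which was not tested. The code was tested on simulated data. Python 3.11.15, NumPy 2.4.6, pandas 2.3.3, SciPy 1.17.1 and Matplotlib 3.10.9 were used.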

Additional observations from a re-analysis of the deposited data

How the results depend on the processing

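The choice of score threshold set the size of the group. With a mean percentile of at least 90 there were 113 regions with 111 nearest genes, and with at least 50 there were 638 with 626, because the threshold itself was moved. The share of centres outside the nearest gene was 73.75% with a window of 500 bp, 100% with 0 bp inside and 70.1% with genes of every type, against 78.9%, and each follows from the window or gene set. Requiring overlap of 50% of the shorter peak, both percentiles at least 75 or 1 list alone left the regions between 222 and 387. Clock genes with a strong region numbered 11 to 13 under all alternatives. They numbered 11 without the region at CCA1 and 11 without regions at tRNA, rRNA or snRNA genes, alternatives chosen after seeing the data. No paired analysis was possible because each group holds 1 library and no test was made. Unknown depth leaves the signal of a peak without an interval.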

Other observations

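Further gene families were named after their values were seen, so their counts describe these regions only. Of the 5 genes of the TOPLESS family of corepressors, 4 had a strong region: TPR1, TPL (82.9 in IonPGM, 90.7 in Illumina), TPR2 (87.1 and 81.2) and TPR3 (77.6 and 92.3). DREB2A, DREB2B and DREB2C, drought- and heat-responsive relatives of the CBF genes, had mean percentiles of 81.2, 88.4 and 92.1. Only these 3 DREB2 genes were looked up, so no share of that family is given. The cytokinin response factor genes CRF3 and CRF4 reached 98.0 and 97.7, and 2 of 8 genes of that family had a strong region.

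In a chosen set of 8 jasmonate synthesis genes, 4 had a strong region. DAD1, a lipase gene that acts early in the pathway, had 98.5 in IonPGM and 96.95 in Illumina. LOX2, a lipoxygenase gene, had 87.6 in IonPGM and 65.9 in Illumina, and AOC1 and AOC2 followed with means of 81.9 and 76.8. Among the JAZ repressor genes of jasmonate signalling, JAZ1 and JAZ6 were the 2 of 12, with means of 78.1 and 85.7. Of the 9 clade A phosphatase genes of abscisic acid signalling, HAI2 (96.3 in IonPGM, 98.9 in Illumina) and ABI2 had one, and PP2CA missed the threshold with a mean of 74.5. For comparison, 1.53% of all protein-coding genes had a strong region in the window.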
